A study of Caenorhabditis elegans with 4 samples.

Results

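The C. elegans genome encodes 5 Wnt ligands and 4 Frizzled receptors, and the mRNAs of these 9 genes were followed through a RIP-seq experiment on the RNA-binding protein LIN-41 (CeLIN41). The genes were found by their WormBase identifiers in both tables of the experiment, and all 9 of 9 were among the 20392 genes listed. The ligands are mom-2, cwn-1, cwn-2, egl-20 and lin-44, and the receptors are mom-5, lin-17, mig-1 and cfz-2. They were compared as 2 maternal members, mom-2 and mom-5, and 7 somatic paralogs, which are names that rest on the known genetics of these genes and not on values from these libraries.

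RIP-seq sets the RNA that comes down with a protein (IP) against the RNA of the whole lysate (input). LIN-41 IP and Input libraries were made from each of 2 biological replicates of young adult worms, grown in different weeks, which gave 4 stranded mRNA libraries. All 4 came from Lab strain# 1587, a line that carries the mutation lin-41(rrr3) and, as a single-copy insertion, the rescuing transgene rrrSi367. In this transgene the promoter of lin-41 drives LIN-41 with a FLAG-GFP-TEV tag, followed by the full-length lin-41 3′UTR, and an unc-119(+) marker is part of the insertion. Worms without the tagged protein were not analysed here, so RNA held by the beads or by the tag cannot be told apart from RNA held by CeLIN41. The lysates were of whole animals, so that for any gene fewer cells of a type and less RNA per cell cannot be told apart.

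Wnt proteins are secreted, lipid-modified signals that bind Frizzled proteins in the membrane of a receiving cell. The signal passes through Dishevelled and changes the amount or the location of β-catenins, which act with the TCF factor POP-1 on target genes. In the early C. elegans embryo, MOM-2 and MOM-5 are supplied by the mother and are known for the induction of endoderm and for the orientation of blastomere divisions, whereas the other ligands and receptors are best known for cell polarity, cell migration and axon growth at later stages.

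The IPs held 39432325 and 40743247 counts in replicates 1 and 2, and the inputs held 33455857 and 38891261. Of the 14029 genes that passed a filter on low counts, 32.9% were enriched in the IP and 35.4% were depleted. A gene was called if its adjusted p was under 0.05 in edgeR's quasi-likelihood test, in which the replicate was a block and p-values were adjusted over all tested genes after Benjamini and Hochberg. With 2 replicates this fit assumed that genes vary alike, so an adjusted p does not measure the spread of a single gene between cultures. The shares of called genes moved with the scaling. The counts of enriched and depleted genes were 4611 and 4960 with TMM, which scales libraries on the bulk of the genes, and 1670 and 9333 (11.9% and 66.5%) with library size only. Over all tested genes, TMM gave a median log2 fold change of -0.14, RLE size factors gave -0.05 and library size only gave -1.07, which is a shift of -0.93 against TMM. Log2 fold changes are therefore relative to the typical mRNA of the libraries and are not amounts bound, and those given with library size only are to be read against the median of -1.07 on that scale. The bait lin-41 had 12953 and 8588 counts in the IPs, against 677 and 543 in the inputs, with a log2 fold change of 4.90 (SE 0.13), and these counts may include mRNA from the transgene.

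mom-2 was far above every other member in both kinds of library. Its level, as counts scaled by gene length and library size (RPKM), was 1142 and 1171 RPKM in the IPs of replicates 1 and 2, against 161 and 194 RPKM in the inputs. The IP values lay above both input values, and the replicates of each group were close to each other, with means of 1157 ± 20.3 in the IPs and 177 ± 23.7 in the inputs (SD, n = 2 each). mom-5, the maternal receptor, was present at an intermediate level, with 41.5 and 33.9 RPKM in the IPs, against 34.4 and 36.3 in the inputs. On this scale, which corrects for library size and gene length alone, the 2 groups of mom-5 overlapped. The level of mom-2 was 27.5 and 34.5 times that of mom-5 in the IPs, against 4.67 and 5.35 times in the inputs.

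The somatic ligands were rare mRNAs in these animals. cwn-1, which acts in cell migration and in muscle development, stood at 1.41 and 0.980 RPKM in the IPs, against 3.53 and 4.61 in the inputs. The levels of cwn-2, egl-20 and lin-44 lay between 0.355 and 0.748 in the IPs, against 0.651 to 1.73 in the inputs. mom-2 therefore made up 99.7% and 99.8% of the summed ligand level in the IPs, against 95.9% and 96.1% in the inputs. In the IPs the order of mean levels was mom-2, cwn-1, lin-44, cwn-2 and egl-20, and in the inputs it was mom-2, cwn-1, cwn-2, egl-20 and lin-44. The place of lin-44 thus differed between the groups, but the counting intervals of lin-44 and cwn-2 in the IPs and those of egl-20 and lin-44 in the inputs overlapped in both replicates, as did those of cwn-2 and egl-20 in the IPs.

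The receptors followed a less steep order. mig-1, a Frizzled with a role in neuronal migration, was the nearest to mom-5, with a level of 5.83 and 4.66 RPKM in the IPs, against 8.37 and 6.42 in the inputs. lin-17 and cfz-2 were lower, at 0.779 to 1.20 in the IPs and at 2.10 to 2.80 in the inputs, and the ranges of these 2 genes overlapped in both groups. mom-5 made up 84.1% and 83.9% of the summed receptor level in the IPs, against 72.7% and 75.4% in the inputs. Its level was 7.13 and 7.28 times that of mig-1 in the IPs, against 4.11 and 5.65 times in the inputs.

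**Figure D1:**
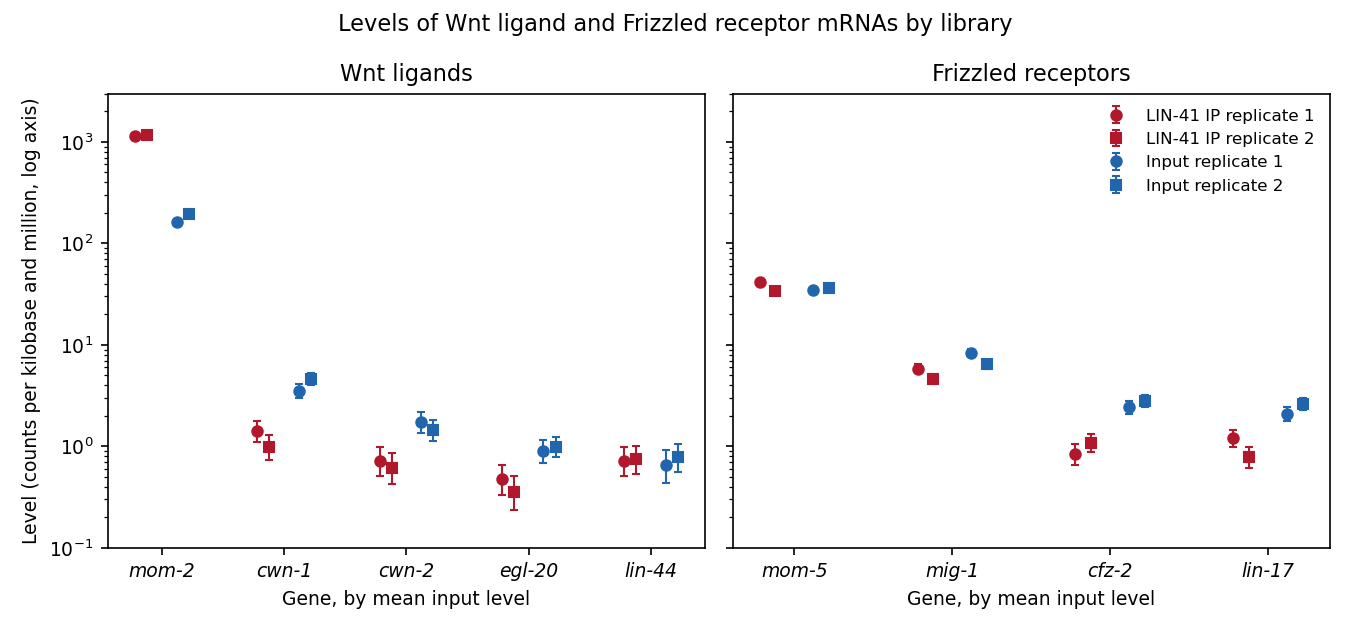
Levels of the 9 mRNAs in RPKM on a log axis, with the 2 LIN-41 IP libraries in red and the 2 Input libraries in blue, ordered within each family by mean input level; bars are exact 95% Poisson intervals, which cover counting error only. mom-2 lies at 1142 and 1171 in the IPs, above 161 and 194 in the inputs, whereas the IP and input values of mom-5 overlap.

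The plot of levels by library shows that the IP and input values of a gene were wider apart for mom-2 than for mom-5, and that cwn-1, cwn-2, egl-20, lin-17, mig-1 and cfz-2 had lower values in the IPs than in the inputs on the scale of library size. These are levels before any correction for the composition of the IP libraries, in which TMM factors were 0.779 and 0.672, against 1.43 and 1.34 in the inputs.

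Of the 9 members, all passed the filter on low counts. In the edgeR test 4 members were enriched (mom-2, mom-5, lin-44 and mig-1) and 2 were depleted (cwn-1 and cfz-2), where 32.9% and 35.4% of all tested genes had these calls, and 3 were neither (cwn-2, egl-20 and lin-17). In so few genes these counts do not set the members apart from genes in general, and the results turn on the size of single values. The 7 somatic paralogs had 2 enriched and 2 depleted genes and a median log2 fold change of -0.32, beside -0.14 over all genes tested.

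mom-2 (WBGene00003395, chromosome V) had 69360 and 73465 counts in the IPs, against 8279 and 11635 in the inputs. Its log2 IP enrichment, which is the difference between the quantile-normalized log2 values of an IP and its own input, was 3.05 and 2.78, with a mean of 2.91 ± 0.19 (SD, n = 2). In the edgeR test its log2 fold change was 3.64 (SE 0.18, adjusted p = 4.42e-87), a 12.5-fold enrichment, and it ranked 217 of 14029 genes. Without the replicate block its edgeR adjusted p was 4.03e-11. mom-2 was called enriched under each of the 10 alternatives to this test, with log2 fold changes between 2.71 and 3.84. It was also high for an mRNA of its abundance. Of 1200 other tested genes whose normalized input value lay within 1 log2 unit of that of mom-2, 26 (2.17%) had a higher log2 fold change, and the middle 90% of them lay between -1.54 and 2.58.

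cwn-1 (WBGene00000857, chromosome II) was depleted. It had 74 and 53 counts in the IPs, against 157 and 238 in the inputs, with a log2 fold change of -0.84 (SE 0.22, adjusted p = 2.61e-04 in the edgeR test). The replicates differed, with log2 IP enrichments of -0.05 and -0.78. The call was lost with DESeq2 (adjusted p = 0.0609) and also without LIN-41 IP replicate 2 (edgeR adjusted p = 0.0766) or without Input replicate 2 (edgeR adjusted p = 0.156).

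Neither call was made for cwn-2 and egl-20. cwn-2 (WBGene00000858, chromosome IV), which helps to place axons of the nerve ring, had 38 and 34 counts in the IPs, against 78 and 76 in the inputs, and a log2 fold change of -0.32 (SE 0.31, adjusted p = 0.365 in the edgeR test). It overlaps W01B6.3 on the opposite strand, which had 23 and 44 counts in the IPs, against 19 and 30 in the inputs, and no source used here says whether reads were counted by strand. egl-20 (WBGene00001188, chromosome IV), the Wnt that guides migrating neuroblasts from the tail, had 36 and 28 counts in the IPs, against 58 and 75 in the inputs, and a log2 fold change of -0.27 (SE 0.34, adjusted p = 0.480 in the edgeR test). With library size only, both were called depleted, at -1.25 for cwn-2 and -1.20 for egl-20, near the median of -1.07 on that scale.

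lin-44 (WBGene00003029, chromosome I), which orients asymmetric divisions in the tail, was the ligand of fewest input counts. It had 39 and 42 counts in the IPs, against 30 and 42 in the inputs. Its log2 IP enrichments were 1.11 and 1.03, and its log2 fold change was 0.97 (SE 0.36, adjusted p = 0.0125 in the edgeR test). This call was lost without any 1 of the 4 libraries (edgeR adjusted p between 0.0602 and 0.213), with DESeq2 (adjusted p = 0.0911) and with library size only (log2 fold change 0.03, edgeR adjusted p = 0.939). The fits without a library also dropped the replicate block, so these losses cannot be credited to the omitted library alone. With all 4 libraries and no block, the call on lin-44 was kept (edgeR adjusted p = 0.0337).

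Among the receptors, mom-5 (WBGene00003397, chromosome I) had 3012 and 2540 counts in the IPs, against 2119 and 2598 in the inputs. Its log2 IP enrichments were 0.63 and 0.45, with a mean of 0.54 ± 0.13 (SD, n = 2). In the edgeR test its log2 fold change was 1.02 (SE 0.10, adjusted p = 1.06e-22), a 2.03-fold enrichment, but with library size only it was 0.08 (adjusted p = 0.647) and the call was lost, although this value too was above the median of all genes on that scale. Of 3134 other tested genes of similar input value, 873 (27.9%) had a higher log2 fold change than mom-5, and their median was 0.41. The enrichment of mom-5 was thus a common one among mRNAs of its abundance, unlike that of mom-2. mom-5 overlaps tsp-7 on the opposite strand, which had 31 and 24 counts in the IPs, against 36 and 35 in the inputs.

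mig-1 (WBGene00003238, chromosome I) had 402 and 332 counts in the IPs, against 490 and 437 in the inputs. Its log2 fold change was 0.44 (SE 0.14, adjusted p = 0.00323 in the edgeR test) with TMM. With library size only it was -0.49 (adjusted p = 0.00969), a change of sign that follows the shift of all genes, and it was still above their median of -1.07. The other 9 alternatives gave values between 0.31 and 0.59. The call was lost without LIN-41 IP replicate 1, LIN-41 IP replicate 2 or Input replicate 2 (edgeR adjusted p = 0.163, 0.101 and 0.223). Its log2 IP enrichments, 0.45 and 0.69, were positive in both replicates.

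lin-17 was not called and cfz-2 was depleted. lin-17 (WBGene00003006, chromosome I), the receptor through which LIN-44 orients tail cell divisions, had 106 and 71 counts in the IPs, against 157 and 229 in the inputs, and a log2 fold change of -0.34 (SE 0.21, adjusted p = 0.135 in the edgeR test). Its log2 IP enrichments, 0.43 and -0.36, had opposite signs, and with library size only it was called depleted, at -1.27, beside that same median. cfz-2 (WBGene00000478, chromosome V), a Frizzled with roles in cell migration, had 69 and 92 counts in the IPs, against 169 and 226 in the inputs, and a log2 fold change of -0.50 (SE 0.21, adjusted p = 0.0236 in the edgeR test). The call on cfz-2 was lost with DESeq2 (adjusted p = 0.276), with RLE size factors (edgeR adjusted p = 0.0739) and with no replicate block (edgeR adjusted p = 0.107). It was also lost without LIN-41 IP replicate 1, Input replicate 1 or Input replicate 2 (edgeR adjusted p = 0.565, 0.105 and 0.418).

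**Figure D2:**
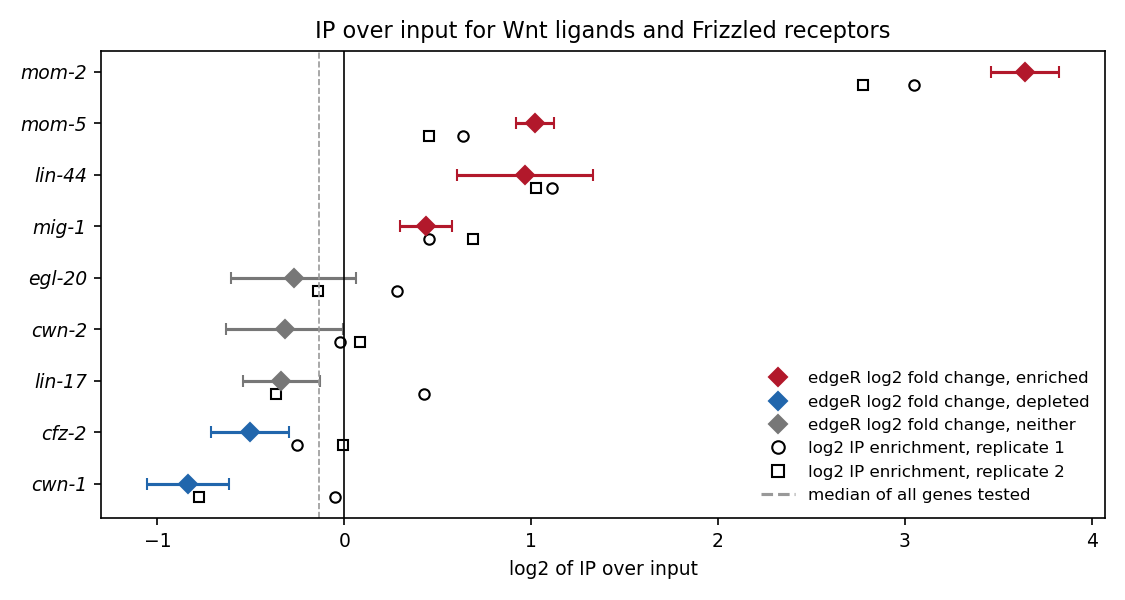
Log2 of IP over input for each member, with edgeR log2 fold changes as diamonds with SE, coloured by call, and the log2 IP enrichment of replicate 1 (circles) and replicate 2 (squares) just below. mom-2 stands apart at 3.64 in the edgeR fit and at enrichments of 3.05 and 2.78, and the other 8 members lie between -0.84 and 1.02 in the edgeR fit; of these, mom-5 and lin-44 are not called with library size only, and mig-1 is then negative at -0.49, above the median of all genes at -1.07.

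The plot of log2 fold changes shows both measures side by side. For mom-2 and mom-5 the edgeR value was higher than the mean IP enrichment, and for the 7 somatic paralogs it was lower. It was -0.84 against an enrichment of -0.41 for cwn-1 and -0.50 against -0.13 for cfz-2, and the sign differed for cwn-2 (-0.32 and 0.03), egl-20 (-0.27 and 0.07) and lin-17 (-0.34 and 0.03). The contrast between maternal and somatic members was thus wider in the edgeR fit. Both measures placed mom-2 first. In the edgeR fit mom-5 came second, at 1.02. By mean IP enrichment, lin-44 at 1.07 and mig-1 at 0.57 stood above mom-5 at 0.54, and mig-1 and mom-5 differed by less than the replicate SD.

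**Figure D3:**
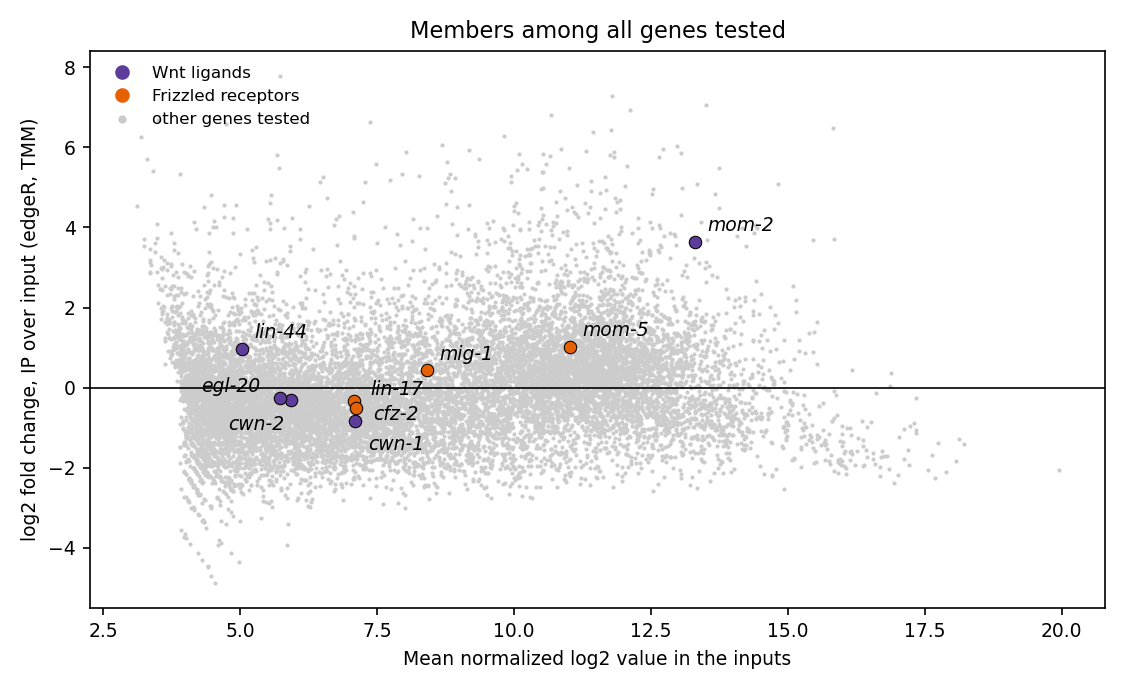
All tested genes, with the mean normalized log2 value in the inputs on the x axis and the edgeR log2 fold change of IP over input on the y axis; ligands are purple, receptors orange and other genes grey, and 8 genes beyond the plotted range are left out. mom-2 lies above most genes of its input value, mom-5 lies inside the cloud at 1.02, and the somatic paralogs lie further left, at lower input values.

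The plot of all genes shows the somatic paralogs within the scatter of other genes of their input values. Of genes of similar input value, 10.8% had a higher log2 fold change than lin-44 and 27.3% than mig-1, beside 27.9% for mom-5. For the other somatic paralogs this share lay between 40.6% and 64.5%. Other tested genes within 1 log2 unit of the input value of lin-44, for example, had log2 fold changes between -2.08 and 1.56 in the middle 90% of 3776 genes, and those near the input value of cwn-1 had a median of -0.51.

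The maternal members were then compared with their paralogs by the ratio of 2 IP-to-input count ratios within a replicate. This quantity does not depend on library scaling or on gene length. The IP-to-input ratio of mom-2 was 17.8 times that of cwn-1 in replicate 1 (95% counting interval 13.4 to 23.8) and 28.4 times in replicate 2 (21.0 to 39.0). It exceeded that of cwn-2 by 17.2 times (11.5 to 26.1) and 14.1 times (9.30 to 21.8), and that of egl-20 by 13.5 times (8.75 to 21.1) and 16.9 times (10.8 to 27.1). The smallest contrast among the ligands was with lin-44, at 6.44 times (3.86 to 10.7) and 6.31 times (4.02 to 9.93). All 4 ratios were above 1 in both replicates, and their log2 means ranged from 2.67 ± 0.02 for lin-44 to 4.49 ± 0.48 for cwn-1 (SD, n = 2).

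The same comparison was much smaller among the receptors. The IP-to-input ratio of mom-5 was 2.11 times that of lin-17 in replicate 1 (1.62 to 2.74) and 3.15 times in replicate 2 (2.391 to 4.199). It was 3.48 times (2.60 to 4.70) and 2.40 times (1.86 to 3.11) that of cfz-2, and 1.73 times (1.498 to 2.005) and 1.29 times (1.102 to 1.504) that of mig-1. The log2 means were 1.37 ± 0.41 for lin-17, 1.53 ± 0.38 for cfz-2 and 0.58 ± 0.30 for mig-1 (SD, n = 2). Part of such a gap is usual between genes of these input values. The median log2 fold change of other genes at the input value of mom-5 exceeded that at the input value of lin-17 by 0.92, of cfz-2 by 0.92 and of mig-1 by 0.74, so that the pair with mig-1, at 0.58, was no wider than usual. For mom-2 the usual gap to its 4 paralogs was between 0.48 and 0.58, against log2 means of at least 2.67. Each of the 7 pairs was above 1 in both replicates beyond counting error, but 2 replicates give no test of the spread between cultures, and no p-value is given for them.

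**Figure D4:**
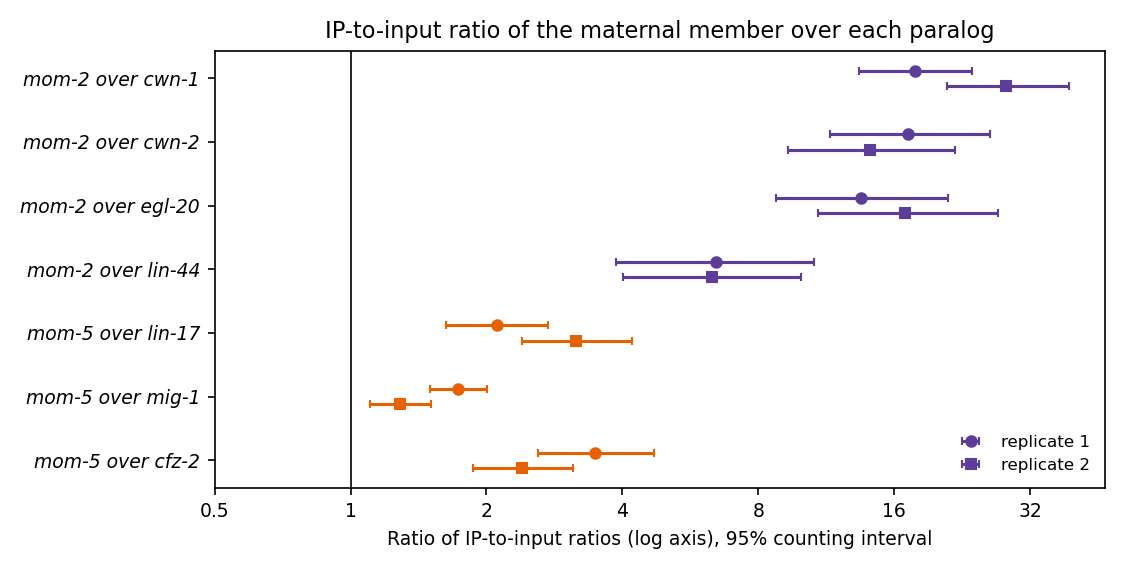
Ratio of the IP-to-input count ratio of mom-2 (purple) or mom-5 (orange) over that of each paralog, on a log axis, in replicate 1 (circles) and replicate 2 (squares); bars are exact conditional 95% intervals that cover counting error only. The mom-2 pairs lie between 6.31 and 28.4 and the mom-5 pairs between 1.29 and 3.48.

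The plot of these ratios shows that no interval of a mom-2 pair other than that with lin-44 reached the intervals of the mom-5 pairs. Marker genes of several tissues were counted in the same libraries, with the shares of 32.9% enriched and 35.4% depleted of all genes with TMM, and of 11.9% and 66.5% with library size only, as the background. Of 8 germline and oocyte markers, 7 were enriched and 1 was depleted with TMM, against 2 and 1 with library size only, with a summed level of 10070 and 10047 CPM (counts scaled by library size) in the IPs, against 4420 and 4740 CPM in the inputs. This difference in summed CPM lay in the 2 markers of highest IP level, mex-3 and oma-2, which were singled out after their values were seen. The other 6 summed to 3457 and 3014 CPM in the IPs, against 3218 and 3414 CPM in the inputs, where the median log2 fold change of all genes was -1.07 with library size only. With TMM 1 of these 6 was depleted, at -1.15, and the others were enriched, at 0.58 to 1.19. Of 7 neuron markers 2 were enriched and 2 depleted with TMM, against 2 and 5 with library size only, with 182 and 150 CPM in the IPs, against 280 and 265 in the inputs. Body muscle markers (1 enriched and 4 depleted of 5 with TMM, 5 depleted with library size only) and intestine markers (4 depleted of 4 with either scaling) summed to 491 to 1001 CPM in the IPs, against 2207 to 3613 in the inputs. Of 4 hypodermis markers 1 was enriched and 0 were depleted with TMM, against 0 and 2 with library size only, with 732 and 639 CPM in the IPs, against 1141 and 972 in the inputs. Medians of the log2 fold change with TMM were 1.07 for the germline list, -0.94 for body muscle and -0.89 for intestine, but 0.04 for neurons and 0.33 for hypodermis. With TMM the somatic lists thus did not all move one way. In summed CPM each of them was lower in the IPs, on the scale where the median of all genes was -1.07. The part of tissue makeup in the difference between mom-2 or mom-5 and their paralogs was not tested. Markers of the zygotic early embryo summed to 9.23 and 8.27 CPM in the IPs, against 28.5 and 28.1 in the inputs, and those of sperm to 4.79 and 3.46, against 24.1 and 16.4, with 1 of 7 sperm markers at 0 in all libraries.

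Among all tested genes, those with the most similar values over the 4 libraries were identified for the maternal members, as the smallest Euclidean distance over the normalized log2 values. For mom-2 these were T21C9.13 at a distance of 0.12, zyg-11, which encodes a substrate adaptor of an E3 ubiquitin ligase, at 0.42, and the F-box gene fbxa-215 at 0.49. T21C9.13 had 64639 and 74544 counts in the IPs, against 8010 and 11219 in the inputs, almost the counts of mom-2. For mom-5 they were nsf-1 at 0.09, which encodes a factor of membrane fusion, Y53C12B.1 at 0.12 and ZK1307.8 at 0.13, with log2 fold changes of 1.07, 1.01 and 0.92. The third neighbour of mom-2 was farther from it than that of mom-5 was from mom-5.

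In the WBcel235 annotation the 3′UTR, the part of an mRNA that many RNA-binding proteins contact, was 338 bases long in mom-2 and 703 bases in mom-5. The median over 13139 tested coding genes was 147 bases. Of the depleted or uncalled paralogs, egl-20 had 763 bases, more than either maternal member. The others had fewer than both, with 336 in cfz-2, 285 in cwn-2, 204 in lin-17 and 182 in cwn-1. mig-1 had the shortest, at 102 bases, and lin-44 had 209. The order of 3′UTR lengths differed from that of the log2 fold changes, and whether length bears on recovery in the IP was not tested.

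The other genes of the Wnt pathway were taken from 4 lists, in which 28 of 29 genes were found and tested. Of these 28, 15 were enriched (beside 32.9% of all tested genes), 8 were depleted (beside 35.4%) and 5 were neither, with a median log2 fold change of 0.28. With library size only, 5 were enriched (beside 11.9% of all tested genes) and 17 were depleted (beside 66.5%). The 5 genes that were enriched with either scaling were cam-1, mom-4, dsh-1, hmp-2 and wrm-1.

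Among 8 genes of Wnt secretion 5 were enriched, 1 was depleted and 2 were neither with TMM, against 0 enriched and 5 depleted with library size only. mom-1, the Porcupine homologue that attaches the lipid to MOM-2, had 206 and 165 counts in the IPs, against 141 and 195 in the inputs, with a log2 fold change of 0.93 (SE 0.18, adjusted p = 8.03e-07 in the edgeR test). mig-14, the homologue of the Wnt carrier Wntless, had a log2 fold change of 0.12 and was not called (adjusted p = 0.359 in the edgeR test). The strongest change of any pathway gene was in the list of other receptors and membrane modulators. With TMM 2 of these 4 genes were enriched and 0 were depleted, beside 32.9% and 35.4% of all tested genes. With library size only 1 was enriched and 2 were depleted, beside 11.9% and 66.5%. cam-1, a Ror-type receptor tyrosine kinase that binds Wnts, had 53445 and 56431 counts in the IPs, against 3065 and 3505 in the inputs. Its log2 fold change of 4.85 (SE 0.18, adjusted p = 8.29e-152 in the edgeR test) ranked 74 of 14029 genes, above mom-2.

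The cytoplasmic relay was split, with 4 of 8 genes enriched and 4 depleted with TMM. The 3 Dishevelled genes were among the enriched ones. dsh-1 had 4303 and 4610 counts in the IPs, against 855 and 1049 in the inputs, with a log2 fold change of 3.02 (SE 0.11, adjusted p = 4.96e-158 in the edgeR test), and mig-5 and dsh-2 followed at 1.30 and 0.49. The 4 depleted genes were gsk-3 at -0.92, the axin genes axl-1 and pry-1 at -0.85 and -0.57, and the casein kinase gene kin-19 at -0.71, of which axl-1 and pry-1 were not called with DESeq2. axl-1 had only 35 and 21 counts in the IPs, against 77 and 95 in the inputs. It overlaps tnsl-1 on the opposite strand, which had 1016 and 827 counts in the IPs, against 1607 and 1812 in the inputs. The APC homologue apr-1 was enriched at 0.24. With library size only, none of the enriched genes other than dsh-1 kept its call.

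Of the 8 genes for β-catenins, TCF and their kinases 4 were enriched, 3 were depleted and 1 was neither with TMM. The shares over all tested genes were 32.9% enriched and 35.4% depleted. With library size only, 3 of the 8 were enriched and 4 were depleted, beside 11.9% and 66.5% of all tested genes. mom-4, the kinase that activates LIT-1 in the endoderm pathway, had 19428 and 20074 counts in the IPs, against 2676 and 3763 in the inputs, with a log2 fold change of 3.42 (SE 0.14, adjusted p = 8.61e-126 in the edgeR test). mom-4 overlaps col-64 on the same strand, but col-64 had 41 to 64 counts in these libraries. The β-catenin genes hmp-2 and wrm-1 followed at 2.10 and 1.42, and the kinase gene lit-1 at 1.09. At the other end, the β-catenin gene bar-1 had 72 and 41 counts in the IPs, against 269 and 255 in the inputs, with a log2 fold change of -1.46 (SE 0.21, adjusted p = 1.46e-11 in the edgeR test). pop-1, the TCF gene, had 127 and 74 counts in the IPs, against 427 and 402 in the inputs, with a log2 fold change of -1.30 (SE 0.18, adjusted p = 6.28e-13 in the edgeR test). tap-1, which encodes a partner of the kinase MOM-4, had 218 and 144 counts in the IPs, against 652 and 672 in the inputs, with a log2 fold change of -1.11 (SE 0.15, adjusted p = 5.01e-13 in the edgeR test). A kinase gene and the gene of its partner thus lay on opposite sides. cam-1, mom-4, dsh-1, bar-1, pop-1 and tap-1 kept their calls in all 10 alternatives to the edgeR test.

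**Figure D5:**
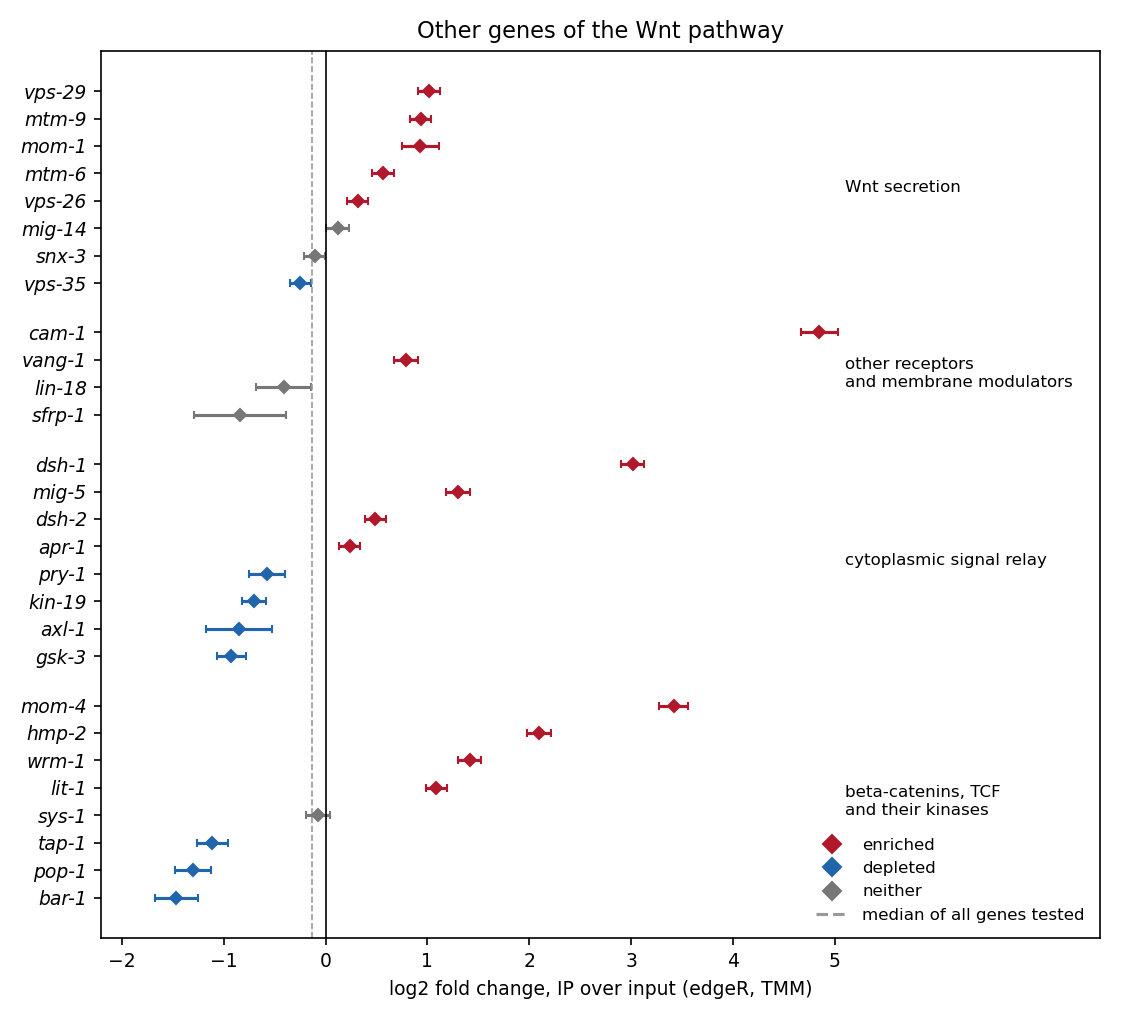
edgeR log2 fold change of IP over input (TMM) with SE for 28 other genes of the Wnt pathway in 4 lists, coloured by call; the dashed line is the median of all genes tested, at -0.14. With TMM the largest values are cam-1 at 4.85, mom-4 at 3.42 and dsh-1 at 3.02, and the smallest called values are bar-1 at -1.46, pop-1 at -1.30 and tap-1 at -1.11; with library size only 5 genes are enriched and 17 depleted.

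In the plot of the pathway genes, each of the 4 lists spans 0, and within the lists the values ranged more widely than the SE of any gene. mom-2 at 3.64 would lie between cam-1 and mom-4, and mom-5 at 1.02 would lie beside vps-29, also at 1.02.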

How the data were processed

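The authors quantified stranded mRNA reads on assembly ce10 with WormBase WS220 gene models and deposited whole-number read counts per gene, without normalization, with gene lengths. No source used here names the aligner or the counting program. They also deposited log2 values of counts scaled to the mean library size, with 8 added before the log and quantile normalization of the 4 libraries. Repeating these steps on the counts gave all 81568 values within 5e-09, and these gave the IP enrichments. Levels (RPKM) are counts divided by gene length and by the total count of the library, and CPM by the total count alone.

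IP and input were tested with edgeR 4.0.16 in R 4.3.3 (glmQLFTest, TMM, filterByExpr, replicate block). The replicate number pairs the samples because each input is the lysate of its IP, and replicate differences in the IP and input correlated at r = 0.286 across 14029 genes, which are not independent. With the block edgeR had 1 residual and infinite prior degrees of freedom, so that its p-values assume that genes vary alike. The SE was derived from the unshrunken log2 fold change and the square root of F. Steps were tested on simulated data. The alternatives were DESeq2 1.42.0, a fit without the block, scaling by RLE or by library size only, filters at 0 or at 10 counts in each of the libraries, and omission of single libraries. The fits that omitted a library also had no block and left 1 library in a group. Counting intervals (95%) were computed with scipy 1.17.1 in Python 3.11.15.

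The members and lists were chosen with earlier results of these data known. Named were all 9 members, lin-41, the 3 highest and 3 lowest called pathway genes and the 3 nearest genes of mom-2 and of mom-5. Other pathway genes and overlapping genes named were chosen after their values were seen. The gene plr-1 was not analysed here. Chromosomes, overlaps and 3′UTR lengths came from Ensembl release 115 (WBcel235), joined for 19870 genes. That build is later than ce10, so coordinates were left out.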

Additional observations from a re-analysis of the deposited data

How the results depend on the processing

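Scaling by library size only shifted all genes, to a median of -1.07, and moved the counts of calls furthest. It gave 1670 enriched and 9333 depleted genes, in place of 4611 and 4960, and the numbers of members were 1 enriched and 6 depleted, and those of pathway genes 5 enriched and 17 depleted. The log2 fold change of mom-5 was then 0.085 (edgeR adjusted p = 0.647), and that of mig-1, also above this median, was -0.49, with an IP enrichment of -0.48. The IP enrichment of mom-2 was 2.71 with library size only and 3.64 with TMM factors, and that of mom-5 was 0.085 and 1.02. The calls on cwn-1 and cfz-2 were kept with library size only, but this scaling shifted all genes toward depletion and so does not test them. Both calls were lost with DESeq2 and without some single libraries. With DESeq2, 3294 genes, 0 members and 5 pathway genes were depleted. Since IP and input are paired by replicate, the fit with no replicate block was also made, which left 1 member depleted (cwn-1) and lost cfz-2, as RLE size factors did. Leaving out each library in turn gave 2 to 3 enriched and 0 to 1 depleted members. The fits that left out a library also dropped the block. The cause of these changes was not tested. Of all values recomputed, 228 counted as unchanged, 33 moved, 19 lost a call, 3 gained a call and 2 counted as reversed. Unchanged meant the same direction and side of the threshold, a move below the replicate SD, or a similar count of calls. An IP enrichment counted as reversed only if its main mean exceeded the replicate SD. Those of cwn-2, egl-20 and lin-17 therefore counted as moved when they turned negative with library size only (-1.08, -1.02 and -1.20). With TMM factors they were negative too (-0.28, -0.23 and -0.33), and that of lin-17 counted as unchanged. Part of the 228 was fixed in advance. With n = 2, a single replicate always lies within the SD of the mean, and the deposited normalized values repeat the main ones. The somatic ligands had 28 to 238 counts in a library, and counting error limits their values, whereas mom-2 and mom-5 had at least 2119 in each.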
